A study of Mus musculus with 16 samples.

Results

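The genes followed here serve hyaluronan synthesis, binding and turnover in the mouse fibroblast-like line 3T3-L1, whose cells can differentiate into adipocytes. They are 9 genes, chosen by name: the synthases Has1, Has2 and Has3, the precursor enzyme gene Ugdh, the hyaluronan-binding genes Cd44, Vcan and Tnfaip6, and the hyaluronidases Hyal1 and Hyal2. Every probe whose annotation named exactly 1 of these symbols was taken, which gave 20 of the 38467 probes and 9 of the 19640 genes on the array. Cd44 had 8 probes, Vcan 4, Hyal2 2 and each of the others 1. The lower Has2 level after 2 h of dexamethasone was known when the genes were chosen, so the values and call counts of that comparison are given as a description and support nothing.

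Cultures were exposed for 2 or 36 h to the synthetic glucocorticoid dexamethasone (dex) or to DMSO, its vehicle. The 4 groups, dex 2 h, DMSO 2 h, dex 36 h and DMSO 36 h, had 4 biological replicates each. Total RNA of each of the 16 samples, in Cy5, was hybridised against a common pool of the samples in Cy3, so each value is a log2 ratio of sample over pool. A ratio says how a gene stood between samples, and levels of different genes cannot be compared. The labels do not say which culture each replicate came from, so p-values measure the spread between these samples.

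Hyaluronan is a long unbranched sugar chain of the extracellular matrix. Hyaluronan synthases in the plasma membrane build it from UDP-glucuronic acid, the product of Ugdh, and UDP-N-acetylglucosamine, and extrude it from the cell. Outside the cell it is held by the receptor CD44 and by secreted proteins such as versican (Vcan) and TSG-6 (Tnfaip6). Hyaluronidases cut it, among them HYAL2 and the lysosomal HYAL1. Undifferentiated fibroblasts and preadipocytes are known for a matrix rich in hyaluronan and versican, and glucocorticoids are known to lower Has2 mRNA in fibroblasts.

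Promoter windows of 300 bases, from 250 bases before the annotated start to 50 after it, were taken from RefSeq on build GRCm38.p6. They were available for 7 of the 9 genes, all but Has2 and Has3. The windows were searched on both strands for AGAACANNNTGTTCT, the full palindrome of the glucocorticoid receptor, for its 6-base arm AGAACA, for the AP-1 motif TGANTCA, the C/EBP motif TTGCNNAA and the cAMP response element TGACGTCA. The following windows are shown because Tnfaip6 fell at 36 h, and because Has1 was the synthase gene with a window. Each is 5′ to 3′ in the direction of transcription, with motif matches in capitals. Tnfaip6 lies at chr2:52037863-52038162 on the plus strand and Has1 at chr17:17855139-17855438 on the minus strand.
Tnfaip6: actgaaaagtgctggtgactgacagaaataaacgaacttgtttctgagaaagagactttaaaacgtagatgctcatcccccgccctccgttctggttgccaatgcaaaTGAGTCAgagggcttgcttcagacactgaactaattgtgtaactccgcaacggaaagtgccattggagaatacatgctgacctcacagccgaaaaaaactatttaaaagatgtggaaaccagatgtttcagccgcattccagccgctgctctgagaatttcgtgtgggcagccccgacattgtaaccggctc
Has1: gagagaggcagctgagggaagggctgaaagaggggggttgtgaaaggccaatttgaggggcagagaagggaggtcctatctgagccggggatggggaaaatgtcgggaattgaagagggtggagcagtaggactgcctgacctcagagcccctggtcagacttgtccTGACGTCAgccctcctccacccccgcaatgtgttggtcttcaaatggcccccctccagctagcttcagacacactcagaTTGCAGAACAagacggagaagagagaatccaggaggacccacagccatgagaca
In Tnfaip6 the capitals mark 1 AP-1 match, at bases 109 to 115 of the window. In Has1 they mark the cAMP response element at bases 168 to 175 and, overlapping each other, a C/EBP match at bases 247 to 254 and the arm AGAACA at bases 251 to 256. Cd44, Vcan, Hyal1, Hyal2 and Ugdh held none of these motifs in their windows. Of 32851 windows in the table, 7.808% held the AP-1 motif, 10.797% the C/EBP motif, 1.79% the cAMP response element, 18.974% the arm AGAACA and 0.009% the full palindrome. A match in a window describes its letters and shows no binding.

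The arrays were of unequal quality. The residual SD of an array about its group means was 0.168 to 0.333 in dex 2 h, 0.183 to 0.435 in DMSO 2 h, 0.122 to 0.205 in dex 36 h and 0.108 to 0.151 in DMSO 36 h. Across probes, the arrays of DMSO 2 h correlated with their replicate 4 at -0.104 on average. Replicates 1 and 3 of dex 36 h correlated at 0.794, against 0.160 to 0.473 for the other pairs of that group, and 36 h results whose call changed without them are also given without them. Fkbp5 and Tsc22d3, established targets of the glucocorticoid receptor, stood 3.11 and 2.43 higher in dex than in DMSO at 36 h on the log2 scale, while Per1, another target, changed by 0.48 and did not pass (adjusted p = 0.0856). Of 8 measured markers of preadipocytes and fibroblasts, 5 were lower in dex than in DMSO at 36 h and 0 higher by the limma test. The lower ones included Dlk1 (-0.86), Col1a1 (-0.72), Col1a2 (-0.58) and Col3a1 (-0.54). In either direction, 6 of the 8 had an unadjusted p under 0.05. Cd34 went the other way and was not called higher, at 0.02 to 0.26 in dex 36 h and -0.32 to -0.12 in DMSO 36 h. Pdgfra overlapped between the 36 h groups. The mean of these markers on an array was -0.18 to -0.03 in dex 36 h and 0.14 to 0.49 in DMSO 36 h. At 2 h it was -0.19 to -0.01 in dex and -0.0030 to 0.099 in DMSO. In DMSO every 36 h array thus lay above every 2 h array, while the dex ranges overlapped. Of 7 macrophage markers 1 was lower (Lyz2, -0.56), and of 5 epithelial markers 1 was higher (Krt8, 1.15). Of 6 endothelial markers 0 passed in either direction, with 0 at an unadjusted p under 0.05. By the same test 4.96% of all genes were lower at 36 h and 6.88% higher, and the marker counts are descriptions. The array means were -0.12 to -0.02 in dex 36 h and 0.0033 to 0.072 in DMSO 36 h for macrophage markers, and 0.082 to 0.13 and -0.16 to -0.085 for epithelial ones. Those of endothelial markers were -0.076 to 0.073 in dex 36 h and -0.0035 to 0.025 in DMSO 36 h. The part of these marker differences in the changes described next was not tested. Ratios to a pool do not show whether a marker was present. A difference in cells of a type and one in RNA per cell cannot be told apart.

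At 36 h, 2 of the 9 genes fell and 0 rose. These were Has2, the synthase gene, and Tnfaip6, a hyaluronan-binding gene. The test was limma's moderated test with Benjamini-Hochberg adjustment over all 38467 probes, a gene passing where at least 1 of its probes had an adjusted p under 0.05. Over all genes 4.96% fell and 6.88% rose by the same rule. Earlier results of these data were known when the genes were chosen, so the count of 2 of 9 is a description. At an unadjusted p under 0.05 on at least 1 probe the counts were 4 lower, which adds Hyal1 and Cd44, and 1 higher, Vcan. Vcan entered by 1 of its 4 probes (0.32), and a gene with several probes has more chances to enter. The share of all genes at an unadjusted p was not computed, so all counts at that threshold are descriptions. The median change of the 9 genes at 36 h was -0.24, against -0.0012 over all genes, and the median absolute change was 0.25 against 0.15. These medians are descriptions, since the probe of each gene was picked by its evidence in the dex comparisons. The -0.24 is the picked Cd44 probe, and the mean over the 8 probes of Cd44 changed by -0.15.

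Has2 encodes the synthase best known from fibroblasts. Its probe (mMC001087) read -1.15, -0.76, -1.19 and -0.72 in dex 36 h replicates 1 to 4, against 0.06, 0.16, 0.12 and -0.03 in DMSO 36 h. All 4 dex arrays lay far below all 4 DMSO arrays, and the gap between the groups was wider than the spread inside either. The change was -1.03 ± 0.14 (SE, n = 4 per group, adjusted p = 0.000237), a 2.04-fold fall. Replicates 1 and 3, the pair that resembled each other most across the array, were the lower pair for Has2. Without them the change was -0.82 (adjusted p = 0.010), and without replicates 2 and 4 it was -1.24 (adjusted p = 0.000237).

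At 2 h, the time that chose the genes, Has2 read -1.06, -1.52, -1.69 and -1.73 in dex, against 0.22, -0.0014, 0.17 and 0.26 in DMSO. The groups did not overlap, and the difference was -1.66 ± 0.14 (SE). Ordered by mean ratio, Has2 stood at 0.16 ± 0.12 in DMSO 2 h, 0.08 ± 0.08 in DMSO 36 h, -0.95 ± 0.25 in dex 36 h and -1.50 ± 0.31 in dex 2 h (SD, n = 4 each). The DMSO groups, at neighbouring places in this order, differed by less than their spread. The dex groups shared a range, since the least affected 2 h array (-1.06) lay above the lowest 36 h arrays. Has2 at 36 h minus 2 h was 0.55 ± 0.14 in dex and -0.09 ± 0.14 in DMSO, so the dex effect was 0.63 ± 0.20 less negative at 36 h. No test is given for these, because the 2-hour arrays had chosen the gene.

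Has1 and Has3, which encode the other synthases, did not pass. Has1 read -0.08, -0.09, -0.19 and -0.17 in dex 36 h and -0.10, -0.24, -0.13 and -0.14 in DMSO 36 h. These arrays interleaved, and the change was 0.02 ± 0.13 (SE, adjusted p = 0.987). Has3 read 0.46, -0.09, 0.87 and 0.34 in dex 36 h, against 0.01, -0.21, 0.25 and 0.16 in DMSO 36 h. Of the dex arrays 3 lay above every DMSO array, but the change of 0.34 ± 0.24 did not pass (adjusted p = 0.474). The error pools all 4 groups, and the SD was 0.39 in dex 36 h and 0.55 in DMSO 2 h. With array weights in the fit Has3 passed (0.37, adjusted p = 0.0020), and with the 8 arrays at 36 h alone it did not (adjusted p = 0.218). The change was 0.07 without dex 36 h replicates 1 and 3 and 0.61 without replicates 2 and 4, and passed in neither case. At 2 h Has1 read -0.13 to 0.07 in dex and -0.13 to 0.64 in DMSO, a difference of -0.17. Has3 at 2 h read -0.05 to 0.41 in dex and -0.53 to 0.80 in DMSO, a difference of -0.0058, with the widest scatter in the vehicle.

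**Figure D1:**
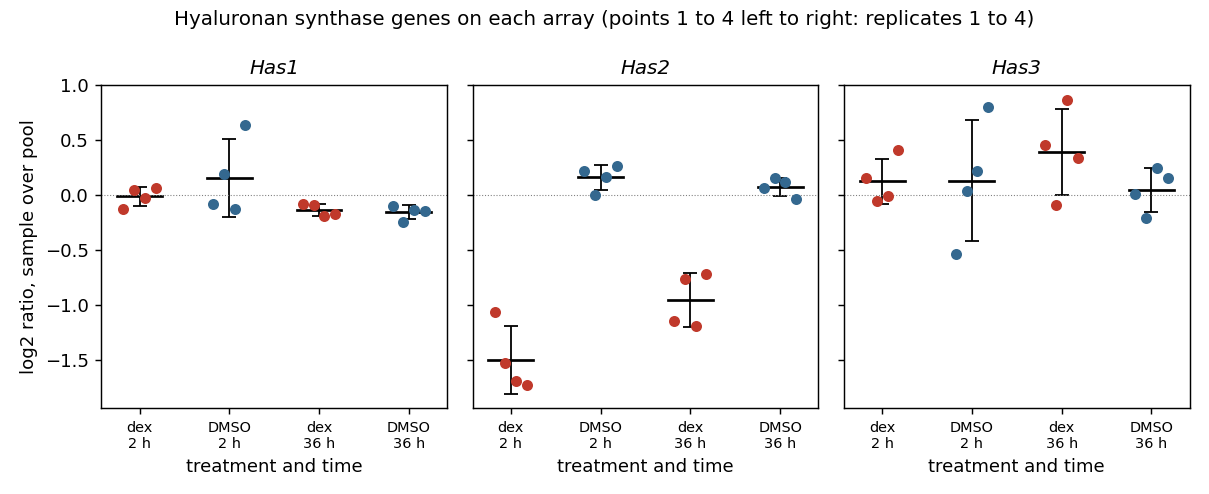
Log2 ratio of sample over pool (vertical axis) of Has1, Has2 and Has3 on each of the 16 arrays, by treatment and time. Points are arrays, replicates 1 to 4 from left to right, horizontal bars are group means and whiskers are 1 SD (n = 4). The dex arrays of Has2 lie between -1.73 and -0.72 and all DMSO arrays between -0.03 and 0.26, while Has1 and Has3 overlap between treatments.

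Ugdh, which supplies the glucuronic acid unit, moved little. It read -0.08, 0.04, -0.16 and -0.07 in dex 36 h and -0.07, 0.09, 0.06 and -0.12 in DMSO 36 h, with overlapping arrays and a change of -0.06 ± 0.08 (SE, adjusted p = 0.800). At 2 h the difference was -0.08, with arrays of -0.16 to -0.02 in dex and -0.17 to 0.13 in DMSO. Its SE was the smallest among the quoted probes of the 9 genes.

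Tnfaip6 encodes TSG-6, a secreted protein that links heavy chains of inter-alpha-inhibitor to hyaluronan and is induced in inflammation. Its probe (mMC022088) read -0.05, -0.22, -0.12 and -0.06 in dex 36 h, against 0.30, 0.44, 0.43 and 0.38 in DMSO 36 h. The arrays of each group were tight and the groups lay apart. Tnfaip6 fell by 0.50 ± 0.11 (SE, n = 4 per group, adjusted p = 0.0072), 1.41-fold. Without dex 36 h replicates 1 and 3 the change was -0.53 but no longer passed (adjusted p = 0.0557), and without replicates 2 and 4 it was -0.47 (adjusted p = 0.0296).

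At 2 h Tnfaip6 read -0.01, 0.05, 0.12 and -0.07 in dex and 0.41, 0.17, 0.06 and -0.20 in DMSO, which overlap, and the difference was -0.09. Group means in descending order were 0.39 ± 0.07 in DMSO 36 h, 0.11 ± 0.25 in DMSO 2 h, 0.02 ± 0.08 in dex 2 h and -0.11 ± 0.08 in dex 36 h (SD, n = 4 each). DMSO at 36 h minus 2 h was 0.28 ± 0.11 (adjusted p = 0.304), and dex at 36 h minus 2 h was -0.13 ± 0.11 (adjusted p = 0.645). These neighbours in the order did not pass, and the groups at 2 h overlapped. The dex effect at 36 h minus that at 2 h was -0.41 ± 0.15 (adjusted p = 0.215), so the main fit did not show the fall at 36 h to differ from the difference at 2 h. Without DMSO 2 h replicate 1 this contrast was -0.51 and passed (adjusted p = 0.0408). It also passed with quantile normalization (-0.65, adjusted p = 0.0120) and with array weights (-0.41, adjusted p = 0.000477). DMSO at 36 h minus 2 h passed under the same settings (0.49, adjusted p = 0.0134, and 0.32, adjusted p = 0.000151).

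Cd44 encodes the main cell-surface receptor for hyaluronan. The quoted probe of a gene with several is that with the strongest joint evidence for both dex comparisons (smallest p, moderated F). For Cd44 it read -0.20, -0.24, -0.10 and -0.12 in dex 36 h and 0.13, 0.14, 0.02 and -0.0025 in DMSO 36 h. The arrays did not overlap, but the change of -0.24 ± 0.09 (SE) did not pass (adjusted p = 0.124), though it did when the 8 arrays at 36 h were fitted alone (adjusted p = 0.0235). With array weights the quoted probe also passed (-0.26, adjusted p = 3.66e-05), and with the mean over the 8 probes Cd44 did not (adjusted p = 0.309). Over the 8 probes the change at 36 h ran between -0.30 and 0.03, with 7 below 0 and 3 whose arrays did not overlap. None of the 8 probes passed in the main fit of all arrays. These probes read the same samples, and the share of all probes without overlap was not computed, so the counts are descriptions. Probes of this gene correlated with each other over the arrays at -0.17 to 0.758. On probe 6 the low values came from dex 36 h replicates 2 and 4 (-0.66 and -0.57), while replicates 1 and 3 read -0.07 and -0.01, inside the DMSO range of -0.18 to -0.05. At 2 h the quoted probe differed by -0.22 and the 8 probes by -0.33 to 0.08.

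Vcan encodes versican, a large chondroitin sulfate proteoglycan that binds hyaluronan with its N-terminal domain. At 36 h its quoted probe read -0.28, 0.04, -0.69 and -0.07 in dex and -0.55, -0.50, -0.15 and -0.12 in DMSO. The groups overlapped and the change was 0.08 ± 0.15 (SE, adjusted p = 0.896). Inside both groups the arrays fell into pairs: dex replicates 1 and 3 were low and 2 and 4 high, and DMSO replicates 1 and 2 were low and 3 and 4 high. On probe 2 the DMSO pairs stood the other way round, at 0.07 and 0.04 in replicates 1 and 2 and at -0.80 and -0.84 in replicates 3 and 4. The other 3 probes changed by 0.25, 0.26 and 0.32, and none passed (lowest adjusted p = 0.144). Vcan was called higher on a probe other than the quoted one when dex 36 h replicate 3, or replicates 1 and 3 together, were left out. The quoted probe was at 0.31 without replicates 1 and 3, and at -0.16 without replicates 2 and 4, and passed in neither case. Probes correlated over the arrays at 0.126 to 0.883.

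At 2 h the quoted Vcan probe read 0.21, 0.46, 0.16 and 0.14 in dex and -0.26, -0.26, -0.43 and -0.55 in DMSO. The groups did not overlap, with a difference of 0.62 ± 0.15 (SE). Probe 4 was also separated, at -0.12 to 0.07 in dex and -0.53 to -0.12 in DMSO, with a difference of 0.30, while probes 2 and 3 overlapped and differed by 0.12 and 0.27. As a description, the call rule marked 1 of the 9 genes as higher at 2 h (Vcan, on 1 of 4 probes) and 1 lower (Has2), where 1.97% and 1.21% of all genes were. Has2 was known when the genes were chosen and nothing is read from this count. The Vcan call was absent when any 1 of the 8 arrays at 2 h was left out.

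**Figure D2:**
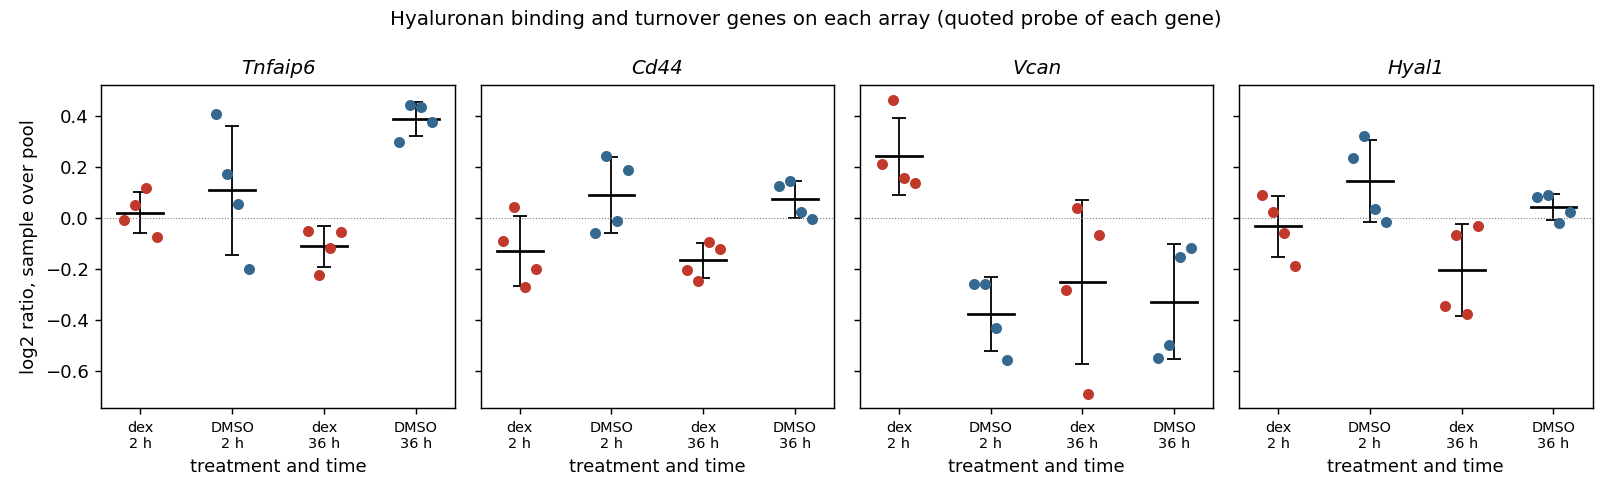
Log2 ratio of sample over pool (vertical axis) of the quoted probes of Tnfaip6, Cd44, Vcan and Hyal1 on each array, by treatment and time. Points are arrays, horizontal bars are group means and whiskers are 1 SD (n = 4). Tnfaip6 is separated at 36 h (dex at most -0.05, DMSO at least 0.30) and overlaps at 2 h, and Vcan is separated at 2 h and overlaps at 36 h.

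Hyal1 encodes the lysosomal hyaluronidase. It read -0.34, -0.07, -0.38 and -0.03 in dex 36 h and 0.08, 0.09, -0.02 and 0.02 in DMSO 36 h. The groups did not overlap, but dex replicates 2 and 4 came close to the DMSO arrays, and the change of -0.25 ± 0.10 (SE) did not pass (adjusted p = 0.167). As for Has2, replicates 1 and 3 were the lower pair. Without replicates 2 and 4 the change was -0.40 and passed (adjusted p = 0.0246), and without replicates 1 and 3 it was -0.09 and did not pass. With array weights it was -0.37 and passed (adjusted p = 5.8e-06). At 2 h Hyal1 read -0.19 to 0.09 in dex and -0.01 to 0.32 in DMSO, a difference of -0.18.

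Hyal2 encodes a membrane-anchored hyaluronidase that cuts large hyaluronan. Its 2 probes correlated with each other at only 0.076. Probe 1 read -0.34, 0.0017, -0.38 and 0.04 in dex 36 h and 0.30, 0.33, 0.18 and 0.18 in DMSO 36 h. These arrays did not overlap, but the change was -0.41 ± 0.50 (SE, adjusted p = 0.760). Fitted on the 8 arrays at 36 h alone, the same change passed (adjusted p = 0.0272). The error pools all 4 groups, and on this probe the SD in dex 2 h was 1.48. In that group replicate 4 read -2.69, while the other 3 arrays read 0.08 to 0.48. The difference at 2 h was -0.85 with it and -0.12 without it. Probe 2 changed by 0.17 at 36 h (adjusted p = 0.436) and differed by 0.06 at 2 h.

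**Figure D3:**
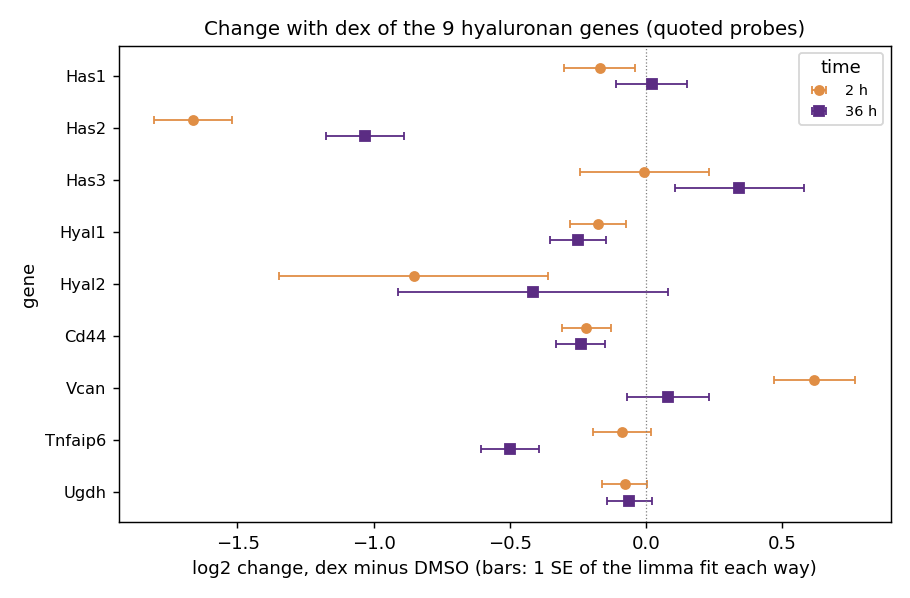
Log2 difference of dex minus DMSO (horizontal axis) at 2 h and at 36 h for the quoted probe of each of the 9 genes (vertical axis). Bars are 1 SE of the limma fit to each side. Has2 lies at -1.66 and -1.03, Tnfaip6 near 0 at 2 h and at -0.50 at 36 h, and Vcan at 0.62 and 0.08.

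**Figure D4:**
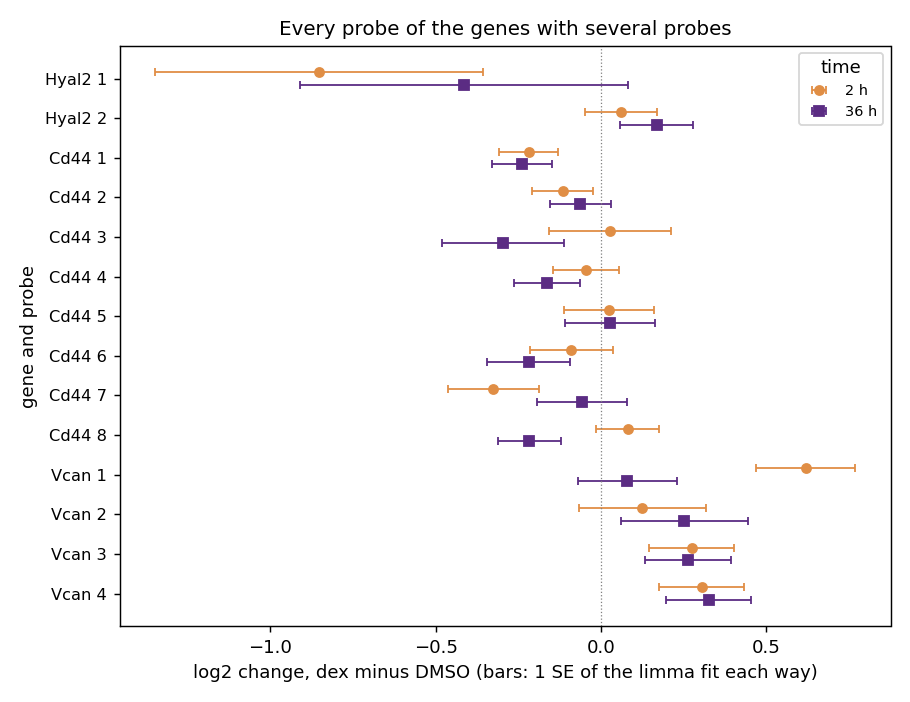
Log2 difference of dex minus DMSO (horizontal axis) at 2 h and at 36 h for every probe of Hyal2, Cd44 and Vcan (vertical axis, gene and probe number). Bars are 1 SE of the limma fit to each side. The Cd44 probes lie between -0.30 and 0.03 at 36 h, and the Hyal2 probe with the array at -2.69 has by far the longest bars.

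Over time, 0 of the 8 genes other than Has2 passed in either direction by limma at 36 h minus 2 h, in DMSO (1.26% of all genes passed) or in dex (2.43%). At an unadjusted p under 0.05 there were 3 in DMSO (Cd44, Tnfaip6 and Has1) and 1 in dex (Vcan). Cd44 entered by its probe 8 alone (0.22), while its quoted probe was at -0.02. Has1 at 36 h minus 2 h was -0.31 ± 0.13 in DMSO (SE, adjusted p = 0.358), and DMSO 2 h replicate 4, at 0.64, was its highest array. The quoted Vcan probe at 36 h minus 2 h was -0.49 ± 0.15 in dex (adjusted p = 0.132), with all dex 36 h arrays below all dex 2 h arrays. The dex effect at 36 h minus that at 2 h passed for 0 of these 8 genes, against 3.48% of all genes. An unadjusted p under 0.05 was found for 3 (Cd44, Vcan and Tnfaip6). Cd44 again entered by probe 8 alone (-0.30), with its quoted probe at -0.02. For Vcan this difference was -0.54 ± 0.21 (adjusted p = 0.263).

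There were 6 lists that covered the rest of the pathway, with 66 measured genes of 70 listed. At 36 h 9 of the 66 rose and 3 fell by the same limma test, next to 6.88% and 4.96% of all genes. The lists were drawn up with earlier results of these data known, and their counts are descriptions. The largest changes in them were in proteases that cut versican and in enzymes that build chondroitin sulfate. Without dex 36 h replicates 1 and 3, Adamts15, Chst12, Tlr4 and Cemip2 still passed.

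Of 10 measured genes that supply the sugar precursors, 1 rose and 0 fell at 36 h, with 4 at an unadjusted p under 0.05 and a median change of 0.00081. Hk1, which phosphorylates glucose, rose by 0.46 ± 0.13 (SE, adjusted p = 0.0415), with other probes at 0.36 and 0.02. The call was lost without any 1 of the 36 h arrays except dex replicates 2 and 4 (0.35 to 0.52), and without dex replicates 1 and 3 together (0.17). Uap1, the last step to UDP-N-acetylglucosamine, changed by 0.52 ± 0.19 and did not pass (adjusted p = 0.105). Fitted on the 8 arrays at 36 h alone, Uap1 passed (adjusted p = 0.00073) and Hk1 did not (adjusted p = 0.0742). Hk2, another hexokinase gene, changed by -0.04 at 36 h and differed by -0.73 at 2 h, and its dex effect was higher at 36 h by 0.69 ± 0.16 (adjusted p = 0.0296).

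Of 9 other hyaluronidases and depolymerases, 1 fell and 0 rose at 36 h, with a median of -0.05. Cemip2 encodes a transmembrane protein described as a cell-surface hyaluronidase. It read -0.46, -0.50, -0.58 and -0.23 in dex 36 h and 0.32, 0.39, 0.33 and 0.22 in DMSO 36 h. The groups lay well apart, and Cemip2 fell by 0.76 ± 0.12 (SE, adjusted p = 0.000680). Its other probe changed by -0.27 (adjusted p = 0.182). Cemip, whose product depolymerises hyaluronan in fibroblasts, changed by 0.14 at 36 h and differed by -0.66 at 2 h, and its effect was higher at 36 h by 0.79 ± 0.18 (adjusted p = 0.0279).

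Among 15 other receptors and binding proteins, 1 rose and 1 fell at 36 h, with a median of 0.0047. Ptx3 encodes pentraxin 3, which joins TSG-6 in the hyaluronan matrix around the mouse oocyte. It read -0.71, -0.59, -0.87 and -0.25 in dex 36 h and 0.14, 0.38, 0.17 and 0.13 in DMSO 36 h. These groups did not overlap, and Ptx3 fell by 0.81 ± 0.15 (SE, adjusted p = 0.0026), with the other probe at -0.80. Without dex 36 h replicates 1 and 3 it was -0.63 and did not pass (adjusted p = 0.0808). At 2 h it differed by 0.28, and the dex effect was lower at 36 h by -1.09 ± 0.21 (adjusted p = 0.0103). Tlr4, the receptor for bacterial lipopolysaccharide that is also discussed as a sensor of hyaluronan fragments, rose by 0.77 ± 0.09 at 36 h (adjusted p = 7.36e-05), with its other probes at 0.64 and 0.53. Hmmr, a hyaluronan-binding protein of the mitotic spindle, changed by 0.44 (adjusted p = 0.204).

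Of 7 lecticans and link proteins beside versican, 2 rose and 0 fell at 36 h, with a median of 0.02. Both are lecticans best known from brain. Bcan rose by 0.52 ± 0.13 (SE, adjusted p = 0.0178), with its other probe at 0.05, and lost its call without dex 36 h replicate 1 or DMSO 36 h replicate 1 or 2 (0.48 to 0.50) or without dex 36 h replicates 1 and 3 together (0.48, adjusted p = 0.192). Ncan rose by 0.34 ± 0.10 (adjusted p = 0.0447), while its 4 other probes changed by -0.33 to 0.40 and did not pass. It lost its call without any 1 of the 8 arrays (0.29 to 0.38) and without dex 36 h replicates 1 and 3 together (0.44, adjusted p = 0.0740). Hapln1, the link protein that clamps lecticans to hyaluronan, changed by -0.33 ± 0.10 (adjusted p = 0.0610). It passed without dex 36 h replicate 2 (-0.37, adjusted p = 0.0430) and with the 8 arrays at 36 h fitted alone (adjusted p = 0.0146).

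Of 6 proteases that cut versican, 2 rose and 0 fell at 36 h, with a median of 0.11. Adamts15 read 0.82, 0.68, 0.91 and 0.15 in dex 36 h and -0.97, -0.87, -0.44 and -0.79 in DMSO 36 h. The groups lay far apart, and it rose by 1.41 ± 0.21 (SE, adjusted p = 0.000457). Adamts9 was called on 1 of its 4 probes (0.44, adjusted p = 0.0023), while the quoted probe changed by 0.14. That call was lost without dex 36 h replicates 1 and 3, and with the mean over the probes (0.05, adjusted p = 0.969), which left Adamts15 alone among the 6. Adamts1 changed by 0.24 ± 0.09 at 36 h (adjusted p = 0.104) and differed by 1.42 at 2 h, so its dex effect was lower at 36 h by -1.18 ± 0.12 (adjusted p = 6.48e-05). Its arrays at 2 h read 0.56 to 0.70 in dex and -0.88 to -0.73 in DMSO, and at 36 h -0.26 to -0.01 in dex and -0.53 to -0.19 in DMSO. The difference of effects was also negative for the quoted Adamts9 probe, at -1.08 ± 0.21 (adjusted p = 0.0101). Adamts4 changed by -0.47 and did not pass (adjusted p = 0.154), though it did with the 8 arrays at 36 h fitted alone (adjusted p = 0.0069).

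Of 19 genes for the chondroitin sulfate chains that versican carries, 3 rose and 1 fell at 36 h, with a median of 0.0062. Chst12 and Chst11 encode sulfotransferases that act on chondroitin. Chst12 read 0.73, 0.31, 0.85 and 0.88 in dex 36 h and -0.38, -0.52, -0.23 and -0.34 in DMSO 36 h, without overlap, and rose by 1.06 ± 0.11 (SE, adjusted p = 1.82e-05). Chst11 rose by 0.77 ± 0.15 (adjusted p = 0.0054), with its other probe at 0.80, and by 0.48 without dex 36 h replicates 1 and 3 (adjusted p = 0.0696). Ust, a uronyl sulfotransferase gene, rose by 0.68 ± 0.17 (adjusted p = 0.0200), with its other probe at -0.09, and lost its call without dex 36 h replicate 3 or DMSO 36 h replicate 1, 2 or 4 (0.61 to 0.68), and without dex 36 h replicates 1 and 3 together (0.65, adjusted p = 0.165). Csgalnact1, which adds the first N-acetylgalactosamine of the chain, fell by 0.53 ± 0.11 (adjusted p = 0.0080), or by 0.39 without those replicates (adjusted p = 0.157).

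**Figure D5:**
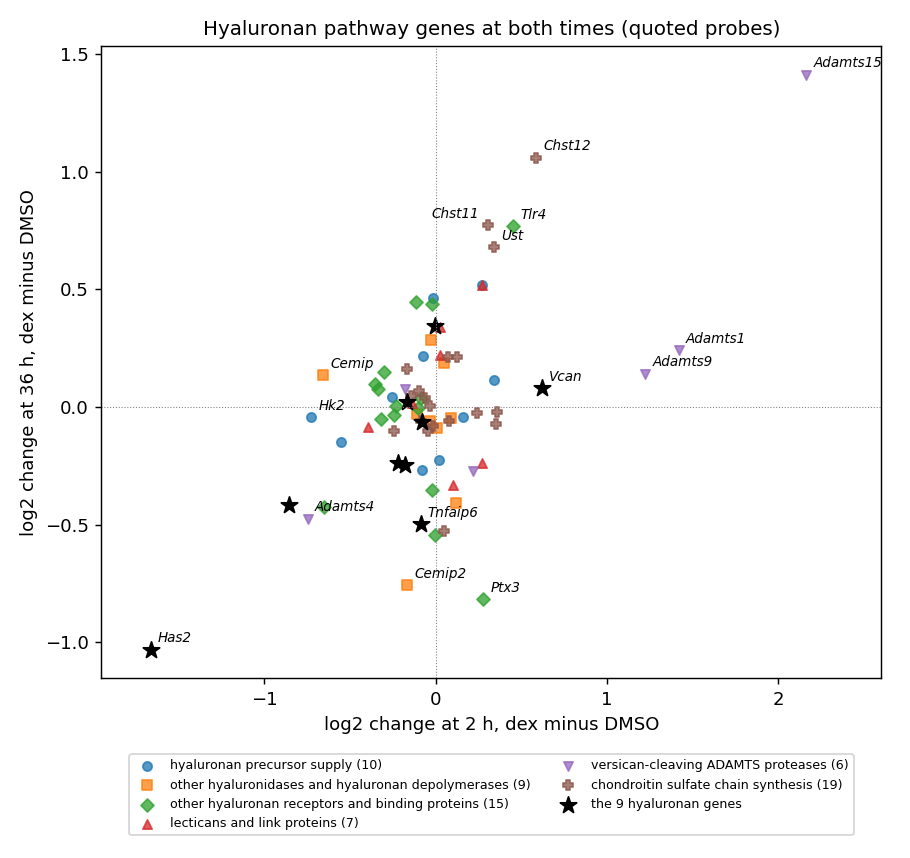
Log2 difference of dex minus DMSO at 2 h (horizontal axis) and at 36 h (vertical axis) for the quoted probe of each of 66 listed pathway genes, by list, and of the 9 hyaluronan genes (stars). Both axes share the same pool but use different arrays. Has2 lies alone at the lower left (-1.66, -1.03), Adamts15 at the upper right (2.16, 1.41), and Adamts1 is high at 2 h and at 0.24 at 36 h.

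The genes whose quoted probe was most like Has2 were found by Pearson correlation over the 16 arrays, as a description. All points share the pool and the arrays, and the group means differ. The highest were Cxcl5, a neutrophil chemokine gene (r = 0.969), the transcription repressor gene Hic1 (0.964), the nuclear receptor gene Nr2f2 (0.956), Rgs16, a regulator of G-protein signalling (0.946), and the growth factor gene Tgfb3 (0.942). Cxcl5 differed by -2.45 at 2 h and -1.78 at 36 h, and Hic1 by -1.18 and -0.53. The lowest were Fam13a (r = -0.962), the cytokine receptor gene Lifr (-0.958), Dnmbp (-0.958), the phosphatase gene Dusp1 (-0.954) and the transcription factor gene Cebpb (-0.951). Dusp1 differed by 2.50 at 2 h and 1.58 at 36 h, and Cebpb by 1.02 and 0.87. Among the other 8 hyaluronan genes the correlation with Has2 was 0.699 for Cd44, 0.576 for Hyal1, 0.526 for Tnfaip6, 0.524 for Hyal2, 0.488 for Ugdh, 0.115 for Has1, -0.207 for Has3 and -0.621 for Vcan. These values are for the quoted probes, picked by their evidence in the dex comparisons, and Cd44 had 8 probes. The quoted Hyal2 probe read -2.69 in dex 2 h replicate 4, the array where Has2 was also lowest (-1.73). The correlation without that array was not computed.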

How the data were processed

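Total RNA from 16 samples was measured on 2-colour arrays with the sample in Cy5 and the pool in Cy3, per the labels. The deposited values are log ratios per probe, used as log2. Their base and normalization are not given in these sources; were they natural logs, every log2 change would scale up equally. The submitters' processing notes name limma. Of 38467 probes, 29456 named 1 gene (symbols updated through RefSeq for 28735 and kept for 721), 760 several and 8251 none. 131 values on 3 arrays were missing, 0 of them in the 20 probes described. No column was left unused. Signal over background is unknown, and the number of arrays limits the precision.

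limma 3.58.1 in R 4.3.3 fitted 4 group means over all 16 arrays (lmFit, eBayes; 12 residual and 3.19 prior degrees of freedom), with Benjamini-Hochberg adjustment over all probes. The scripts were tested on simulated data. Named genes were the 9 genes with every probe, up to 4 genes per list that passed at 36 h and up to 2 that did not, and the 5 genes most and least correlated with Has2. Members and lists were chosen with earlier results of these data known. Deviations of same-numbered replicates correlated at r = -0.103 to 0.344 over 24 pairs, 5 above 0.1. For dex with DMSO at 2 h, r was -0.103, 0.190, 0.041 and 0.255 in replicates 1 to 4. At 36 h it was -0.024, 0.344, 0.224 and -0.075. Some same-time pairs thus deviated together and others did not. The labels name no pairing, so the main fit used no block, and a block was run as an alternative. Alternatives covered the call rule, normalization, block, array weights, robust variance, probe averaging, the arrays fitted and each array left out.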

Additional observations from a re-analysis of the deposited data

Results flagged for a closer look

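In 80 sets of 4 arrays (20 probes, 4 groups), Dixon's test put 4 single arrays apart, where chance at 5% gives 4.0. Hyal2 probe 1 read -2.69 in dex 2 h replicate 4, with the other arrays at 0.08 to 0.48. Cd44 probe 8 read 0.00056 in DMSO 36 h replicate 4, with the others at 0.056 to 0.064. Vcan probe 3 read -0.13 in DMSO 2 h replicate 1, with the others at -0.40 to -0.38. Ugdh read -0.018 in dex 2 h replicate 2, with the others at -0.16 to -0.14.

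The dex effect at 36 h minus that at 2 h passed limma's test of the difference for 5 named pathway genes and 1 glucocorticoid target. It was higher at 36 h for Hk2 (0.69), Cemip (0.79) and Fkbp5 (0.74, adjusted p = 0.0320), and lower for Ptx3 (-1.09), Adamts1 (-1.18) and Adamts9 (-1.08). Of the 9 hyaluronan genes, the 8 other than Has2 did not pass, and no test is read for Has2, whose 2-hour values chose the genes. The call for Cemip was lost in 9 of 16 fits without 1 array (0.73 to 0.82), among them dex 36 h replicates 1, 2 and 4. That for Hk2 was lost in 8 of 16 (0.61 to 0.71), again with dex 36 h replicates 1, 2 and 4 among them. The call for Adamts9 was lost with the mean over its probes (-0.60, adjusted p = 0.326). Without dex 36 h replicates 1 and 3, the calls for Hk2 (0.77, adjusted p = 0.0588), Ptx3 (-0.91, adjusted p = 0.0831) and Adamts9 (-1.02, adjusted p = 0.0750) were lost.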

How the results depend on the processing

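Has2 fell at 36 h and passed under all 17 alternatives run (-1.40 to -0.82, highest adjusted p = 0.010). Tnfaip6 passed under all but 1 (-0.71 to -0.44), which left out dex 36 h replicates 1 and 3 (adjusted p = 0.0557). The share of all genes called was not computed for any alternative or with arrays left out. The counts below therefore describe the settings and are not results about these genes. Of the 9 genes, 1 was called higher at 36 h with quantile normalization (Vcan). With array weights 2 were higher (Has3 and Vcan) and 4 lower (Has2, Hyal1, Cd44 and Tnfaip6). With only the 8 arrays compared 4 were lower (Has2, Hyal2, Cd44 and Tnfaip6). At 2 h 0 were called higher with the log-odds rule, the replicate block, probe means or the 8 arrays alone, and 2 lower with array weights. Counts over time and for the difference of effects include Has2, for which no test is read. DMSO over time gave 1 higher with quantile normalization, and 2 higher and 1 lower with array weights. Dex over time gave 2 higher and 2 lower with array weights. The difference between the dex effects gave 1 lower with quantile normalization, and 3 higher and 3 lower with array weights. Of the 66 pathway genes, 5 were called higher with the log-odds rule or probe means and 25 with array weights. Lower calls were 7 with quantile normalization, 18 with array weights and 8 with the 8 arrays alone.

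Leaving out 1 array gave 0 to 1 higher and 2 lower of the 9 genes at 36 h, 0 higher and 1 to 2 lower at 2 h, 0 to 1 higher over time in dex, and 0 to 1 in each direction for the difference of effects. For the pathway genes it gave 5 to 10 higher and 3 to 7 lower. A further 2 settings were chosen after seeing the data. Without dex 36 h replicates 1 and 3, 1 of the 9 genes was called higher at 36 h (Vcan) and 1 lower over time in dex, and the pathway counts were 3 higher and 1 lower. Without replicates 2 and 4, 1 was lower over time in dex, 1 lower for the difference of effects, and 8 pathway genes were lower. The replicate block left 2 of the 9 genes lower at 36 h (Has2 adjusted p = 0.0012, Tnfaip6 0.0149). Whether the replicate numbers pair the samples is not known. Among pathway genes, Hk1 lost its call under the block (adjusted p = 0.0509), as did the difference of effects for Hk2 (adjusted p = 0.0591), and Ncan lost its call in each fit without 1 of the 36 h arrays. The cause of these differences was not tested. No value of a called gene changed sign. Signal over background is unknown.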
